A study of Mus musculus with 10 samples.

Results

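The semaphorin signalling system comprised 31 of the 41388 genes listed for ear skin: 20 semaphorins (the ligands), 9 plexins (their main receptors) and the neuropilins Nrp1 and Nrp2 (co-receptors). Members were taken by gene symbol alone, and 3 antisense genes named after Plxna4 were kept apart. The choice of this system was made with earlier results of these data known. RNA of whole ear skin was sequenced from 10 C57Bl/6 mice, 1 library per mouse: 4 in the Littermate group, labelled WT, and 6 in the Experimental group. Mice of both groups had received MC903 (calipotriol, a vitamin D analogue that produces an itching dermatitis) on the skin, given for the littermates as 1 nM every day over 12 days, so untreated skin was not part of the comparison. The sources disagree on the Experimental genotype: the series text names NaV1.8+ Il4raF/F, a floxed gene for the shared IL-4 and IL-13 receptor chain, and the sample labels name NaV1.8+ Jak1F/F, a floxed gene for a kinase downstream of it. The NaV1.8 channel, product of Scn10a, marks small sensory neurons for pain and itch. The sources used here do not give the ages of the mice, nor how the NaV1.8 promoter drives the deletion.

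Semaphorins were first known as guidance cues that repel or attract growing axons. Class 3 members are secreted and mostly bind a neuropilin that pairs with an A-type plexin, while classes 4 to 7 are held at the cell surface and mostly bind plexins directly. Plexins carry a cytoplasmic GTPase-activating domain for small R-Ras and Rap proteins, through which they loosen adhesion and collapse the growth cone. In skin, Sema3a made by keratinocytes is known as a repellent of epidermal nerve fibres, and other members act on blood vessels, lymphatics and immune cells.

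Total counts per library ran from 11520348 to 41935183. All 31 members passed the filter on low counts, and their counts ran from 6 (Sema5b) to 14225 (Plxnb2) in a library. The label check was weak: Scn10a gathered 2 counts in the whole data set, and the 5 sensory neuron markers summed to 0.234 to 1.14 CPM (counts scaled to library size). The cell bodies of these neurons lie outside the ear. Il4ra ran from 36.1 to 46.3 normalized RPKM in Littermates and from 25.6 to 53.1 in Experimental mice (edgeR, log2 fold change -0.20, adjusted p = 0.678), and Jak1 from 38.7 to 46.4 and from 37.7 to 44.8 (-0.06, adjusted p = 0.815). In neither gene do the libraries show which one was deleted. Keratinocyte, fibroblast, endothelial, macrophage and Schwann cell markers were present in every library. In such bulk tissue fewer cells of a type and less RNA per cell cannot be told apart.

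No member differed between the groups at an adjusted p under 0.05 by edgeR's quasi-likelihood test over 16830 genes, and DESeq2 called 1, Plxnd1. In the edgeR test 3 of all genes passed (0.0178%), 1 higher (0.00594%) and 2 lower (0.0119%) in Experimental skin. DESeq2 called 231 of all genes (1.52%), 35 higher and 196 lower. At an unadjusted p under 0.05 there were 8 of the 31 members, 7 lower (Plxnd1, Sema6d, Plxna1, Sema3f, Plxnb3, Sema4b and Plxna4) and 1 higher (Sema3e), against 11.8% of all genes, 8.1% lower and 3.65% higher. The log2 fold change was below 0 for 25 of the 31 members and for 50.4% of all genes. Its median was -0.14 over the members, -0.12 over the semaphorins and -0.20 over the plexins, beside -0.00 over all tested genes. Without Littermate 4, the highest library for 19 of the 31 members, the median over the members was -0.07, with 20 of 31 below 0. Leaving out a highest control shrinks such a difference in any case. With a correction for the GC content of the transcripts, described with the library values further on, the median was -0.11, with 22 of 31 below 0. The part of that library or of base composition in the lean was not tested.

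Levels between genes were compared as normalized RPKM (reads scaled by exon length and by library size with TMM factors). They spanned from 0.108 for Sema5b to 51.9 for Plxnb2 as means over the 10 libraries. The 4 highest members were Plxnb2, Sema3f (31.0), Plxnb1 (20.1) and Plxna1 (18.9). Class 3 made up 52.2% of the summed semaphorin RPKM and class 4 made up 31.5%, while classes 5, 6 and 7 held 5.63%, 6.55% and 4.09%. The semaphorin RNA of the ear skin was thus mostly that of secreted and class 4 ligands. The plexin RNA was mostly of B-type, at a sum of 78.5 ± 11.4 RPKM (SD, n = 4) in Littermates and 69.0 ± 3.97 RPKM (SD, n = 6) in Experimental mice. The A-type plexins summed to 37.1 ± 6.61 and 31.2 ± 1.19 RPKM.

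**Figure D1:**
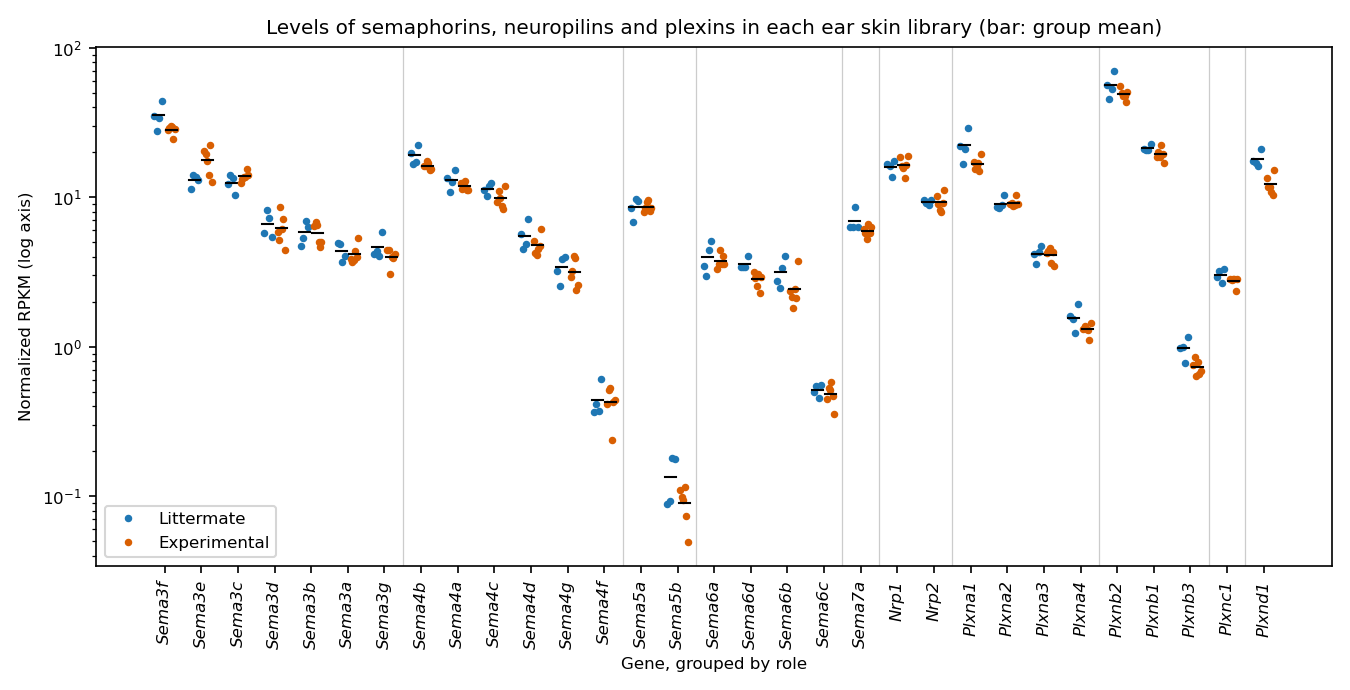
Normalized RPKM (log axis) of the 31 members in each of the 10 libraries, grouped by class of ligand or receptor, with Littermates in blue, Experimental mice in orange and black bars at the group means. The groups overlap for all members other than Plxnd1 and Sema6d, and Plxnb2 is the highest and Sema5b the lowest member.

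The plexin with the lowest p was Plxnd1 (ENSMUSG00000030123, mm10 chromosome 6, 115954811 to 115995005), the receptor of Sema3e and of some other ligands, known from the patterning of blood vessels. In Littermates 1 to 4 it stood at 17.4, 16.9, 16.2 and 21.1 normalized RPKM. In Experimental mice 1 to 6 it stood at 13.5, 11.7, 11.6, 10.8, 10.4 and 15.1 RPKM. All 6 Experimental libraries lay below all 4 Littermates. The group means were 17.9 ± 2.17 RPKM (SD, n = 4) and 12.2 ± 1.79 RPKM (SD, n = 6), or -0.55 on the log2 scale (SE 0.11, 95% interval -0.78 to -0.33). It ranked 20 of 16830 genes and did not pass (edgeR, adjusted p = 0.0834).

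The call on Plxnd1 turned on single libraries and on the tool. It passed without Littermate 2 (log2 fold change -0.58, edgeR, adjusted p = 0.0279), without Experimental 6 (-0.62, adjusted p = 0.0326) and with DESeq2 (-0.55, adjusted p = 0.00249), and in 7 of 21 alternatives in all. In those 7 fits from 28 (0.168%) to 563 (3.34%) of all genes passed, against 3 in the reported fit. For Plxnd1, Experimental 6 was the highest library of its group and Littermate 2 lay under its group mean. Leaving out either library widens the difference in any case. Without Littermate 4, the highest library for Plxnd1, the gene was at -0.45 (edgeR, adjusted p = 0.333). With a correction for GC content it was -0.39 (edgeR, adjusted p = 0.272) and with the level of Y-linked genes as a covariate -0.39 (adjusted p = 0.790). The 5 markers of blood endothelium, a main site of Plxnd1, summed to 203 to 264 CPM in Littermates and 170.0 to 249.7 CPM in Experimental libraries. Their median log2 fold change was -0.05, with 2 of 5 above 0, a range from -0.27 (Cdh5) to 0.15 (Tek), and none passed. Of the 5 markers of lymphatic endothelium, Ccl21a was at 0 in all libraries and the other 4 were all below 0, with a median of -0.28 and sums of 118 to 149 and 107 to 127 CPM, and none passed. Prox1 stood at -0.52, Flt4 at -0.41, Lyve1 at -0.14 and Reln at -0.11 (edgeR, adjusted p = 0.108, 0.121, 0.654 and 0.594). For Prox1 all 6 Experimental libraries lay below all Littermates, as for Plxnd1 and for 1.35% of all genes. The part of either cell type in the Plxnd1 values was not tested.

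Sema3e (ENSMUSG00000063531, chromosome 5, 14025276 to 14256689), the class 3 ligand that binds Plxnd1 without a neuropilin, had the opposite sign. It stood at 11.4, 14.0, 13.6 and 13.0 RPKM in Littermates 1 to 4. The Experimental mice 1 to 6 had 20.4, 19.4, 17.6, 14.1, 22.5 and 12.7 RPKM. Of the 6 Experimental libraries 5 lay above all Littermates, and the sixth, Experimental 6, lay within their range. The means were 13.0 ± 1.14 RPKM (SD, n = 4) and 17.8 ± 3.77 RPKM (SD, n = 6), or 0.45 on the log2 scale, SE 0.14, which did not pass (edgeR, adjusted p = 0.254). Experimental 6 thus had the lowest Sema3e and the highest Plxnd1 of its group. Without this library alone Sema3e stood at 0.53 (edgeR, adjusted p = 0.0690), and without it and Littermate 2 at 0.57 (adjusted p = 0.0358). Littermate 2 was the highest control for Sema3e, so leaving out either library raises the fold change in any case. Over all genes 28 and 563 passed in these fits, against 3 with all libraries. The 4 tested markers of the hair follicle also lay above 0, with a median of 0.58, and none passed. Sums over all 5 were 156 to 209.9 CPM in Littermates and 177 to 348 CPM in Experimental libraries. These sums were mostly Krt75, with 40748 counts over all libraries. Krt25, Krt71, Lgr5 and Krt35 had 441, 432, 1718 and 35. Krt75 stood at 0.62, SE 0.18 (edgeR, adjusted p = 0.221). Krt25, Krt71 and Lgr5 stood at 0.55, 0.75 and 0.12, with SEs of 0.43, 0.73 and 0.28. Sox9 was not on the hair follicle list and stood at -0.73, SE 0.09 (edgeR, adjusted p = 0.00331). The part of the hair follicle in the Sema3e values was not tested.

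The genomic sequence just before the start sites of this ligand and receptor is shown, since they are the receptor with the lowest p and its ligand, with fold changes of opposite sign. Each run is the 250 bases before the RefSeq start site (GRCm38.p6), 5′ to 3′ on the strand of the gene. Capitals mark the GC box GGGCGG and the nuclear receptor hexamer AGGTCA, each searched on both strands.

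Sema3e, chr5:14025026-14025275, plus strand: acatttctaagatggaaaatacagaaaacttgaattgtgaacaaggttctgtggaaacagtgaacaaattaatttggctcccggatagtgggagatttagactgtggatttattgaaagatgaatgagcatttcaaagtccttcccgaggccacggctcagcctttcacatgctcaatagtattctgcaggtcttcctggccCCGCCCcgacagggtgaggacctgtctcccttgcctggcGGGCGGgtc

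Plxnd1, chr6:115995006-115995255, minus strand: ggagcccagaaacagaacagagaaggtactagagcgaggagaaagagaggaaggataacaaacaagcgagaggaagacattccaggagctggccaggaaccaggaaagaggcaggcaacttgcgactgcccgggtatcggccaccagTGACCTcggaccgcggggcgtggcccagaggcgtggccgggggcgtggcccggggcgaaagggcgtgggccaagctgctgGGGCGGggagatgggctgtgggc

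The Sema3e window was 48.0% GC with 7 CpG and held 2 GC boxes and no hexamer. The Plxnd1 window was 64.8% GC with 16 CpG and held 1 GC box and 1 hexamer, with no overlap between them. Windows were found for 26 of the 31 members, 37 in all. The GC box was in 27 of these 37 and in 32.7% of 32851 windows of all genes. The hexamer was in 7 of 37 and 14.0%, and the TATA box TATAAA in 0 of 37 and 12.4%. The members' windows had a median GC content of 64.0%, against 52.4% for all genes. A match describes letters in the window and not a bound site.

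**Figure D2:**
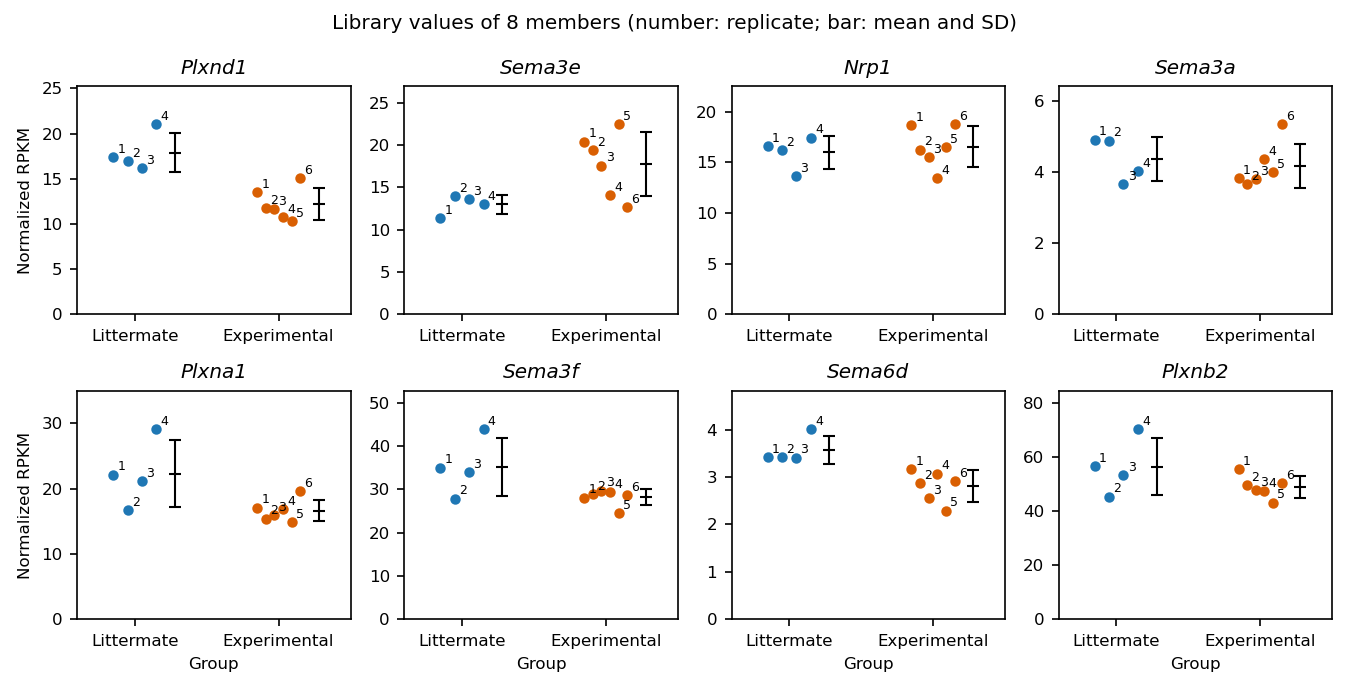
Normalized RPKM of 8 members in the 4 Littermate (blue) and 6 Experimental (orange) libraries, numbered by replicate, with the mean and SD at the side and axes from 0. Plxnd1 and Sema6d do not overlap between the groups, Sema3e is high in 5 of 6 Experimental libraries, and Littermate 4 is the highest control for Plxnd1, Plxna1, Sema3f, Sema6d and Plxnb2.

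Among the other secreted ligands, Sema3a (ENSMUSG00000028883, chromosome 5, 13396784 to 13602565), the nerve repellent, showed no detectable difference. It stood at 4.92, 4.89, 3.67 and 4.02 RPKM in Littermates 1 to 4 and at 3.84, 3.68, 3.82, 4.37, 4.00 and 5.36 RPKM in Experimental mice 1 to 6. Experimental 6 was the highest of all libraries, and all others lay between 3.67 and 4.92. The groups stood -0.07 apart in log2 units, with bounds of -0.32 and 0.18 at 95% confidence (edgeR, adjusted p = 0.858).

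Sema3f (ENSMUSG00000034684, chromosome 9, 107681502 to 107710475), a repellent that acts mainly through Nrp2, was the semaphorin with the highest level. Littermates 1 to 4 had 35.0, 27.9, 33.9 and 44.0 RPKM, and Experimental mice 1 to 6 had 28.1, 28.9, 29.7, 29.5, 24.5 and 28.6 RPKM. Littermate 2 lay within the Experimental range and the other controls above it. The log2 fold change was -0.32 with an SE of 0.10 (edgeR, adjusted p = 0.245). It passed without Littermate 2 (-0.41, edgeR, adjusted p = 0.0313), as did 2.01% of all genes, and was -0.18 without Littermate 4 (adjusted p = 0.679). Littermate 2 was the lowest control for Sema3f, so leaving it out widens the difference in any case. Of the other class 3 ligands, Sema3c, a guide of vessels and neural crest cells, stood at 0.14, Sema3b at -0.02, Sema3d at -0.10 and Sema3g, a ligand of endothelial origin, at -0.21 (edgeR, adjusted p from 0.564 to 0.975). Over the 7 genes of the class, 5 lay below 0 and the median was -0.07.

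The neuropilins, which also serve as co-receptors of VEGF, showed no detectable difference. Nrp1 (ENSMUSG00000025810, chromosome 8, 128359073 to 128505462) had 16.6, 16.2, 13.7 and 17.5 RPKM in Littermates 1 to 4 and 18.6, 16.3, 15.6, 13.4, 16.5 and 18.8 RPKM in Experimental mice 1 to 6. Nrp2 (ENSMUSG00000025969, chromosome 1, 62703285 to 62818695), the neuropilin of lymphatic vessels and of Sema3f, had 9.58, 9.13, 8.87 and 9.53 RPKM in Littermates and 10.1, 8.98, 8.20, 7.99, 9.18 and 11.2 RPKM in Experimental mice. For both genes the groups overlapped widely. Nrp1 stood at 0.05 on the log2 scale (95% interval -0.16 to 0.25) and Nrp2 at -0.00 (-0.19 to 0.19) (edgeR, adjusted p = 0.891 and 0.999). The alternative ligands Vegfa, Vegfc and Pgf stood at -0.14, 0.05 and 0.09 (edgeR, adjusted p from 0.730 to 0.940).

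The A-type plexins are the signalling partners of the neuropilins and the direct receptors of class 6. Plxna1 (ENSMUSG00000030084, chromosome 6, 89316316 to 89362613) stood at 22.1, 16.8, 21.1 and 29.1 RPKM in Littermates 1 to 4 and at 17.1, 15.4, 16.0, 16.9, 14.9 and 19.6 RPKM in Experimental mice 1 to 6. Of the controls, Littermate 2 was the lowest and lay within the Experimental range. The log2 fold change was -0.42 with an SE of 0.12 (edgeR, adjusted p = 0.217). Plxna1 passed without Littermate 2 (-0.54, edgeR, adjusted p = 0.0233), as did 2.01% of all genes, and was -0.25 without Littermate 4 (adjusted p = 0.626). Leaving out the lowest control widens such a difference in any case. Of the exon bases of Plxna1, 10.8% also belong to Gm26811 in the deposited annotation, so reads there cannot be told apart.

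The other A-type plexins were lower in level. Plxna4, the form typical of sensory neurons in development, had 1.60, 1.53, 1.23 and 1.92 RPKM in Littermates 1 to 4 and 1.31, 1.37, 1.31, 1.30, 1.11 and 1.45 RPKM in Experimental mice 1 to 6. The groups overlapped, and the log2 fold change was -0.26 (edgeR, adjusted p = 0.398). Plxna2 stood at 0.02 and Plxna3 at -0.03 (adjusted p = 0.942 and 0.936).

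The B-type plexins, receptors of class 4 ligands, held both the plexin of the highest level and that of the lowest. Plxnb2 had 56.4, 45.2, 53.3 and 70.3 RPKM in Littermates 1 to 4 and 55.4, 49.6, 47.7, 47.3, 43.0 and 50.3 RPKM in Experimental mice 1 to 6. Littermate 4 stood above every other library and the rest overlapped, at -0.20 in log2 units (edgeR, adjusted p = 0.484). It was -0.07 without Littermate 4 and 0.07 with the Y-linked level as a covariate. Plxnb1, the receptor of Sema4d, had 20.9, 20.7, 20.6 and 22.6 RPKM in Littermates and 18.6, 20.0, 18.6, 22.4, 19.4 and 17.0 RPKM in Experimental mice, or -0.13 on the log2 scale (edgeR, adjusted p = 0.530). Of its 6 Experimental libraries 5 lay below all Littermates, while Experimental 4 lay near the top. Plxnb3, a receptor of Sema5a, had 0.976, 0.993, 0.777 and 1.15 RPKM in Littermates and 0.751, 0.849, 0.636, 0.792, 0.660 and 0.690 RPKM in Experimental mice. It stood at -0.41 on the log2 scale, SE 0.14 (edgeR, adjusted p = 0.254), and Littermate 3 lay among the Experimental values.

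Class 4 ligands act on B-type plexins and, in immune cells, on other receptors. Sema4b had 19.8, 16.8, 17.3 and 22.5 RPKM in Littermates 1 to 4 and 16.0, 16.1, 17.5, 17.0, 15.1 and 15.5 RPKM in Experimental mice 1 to 6. In 4 of the 6 Experimental libraries it was below all Littermates, at -0.24 in log2 units (edgeR, adjusted p = 0.288). Sema4d, known as CD100 on T cells, had 5.69, 4.50, 4.85 and 7.12 RPKM in Littermates and 5.07, 4.22, 4.13, 4.51, 4.73 and 6.13 RPKM in Experimental mice. The groups overlapped, at -0.21 in log2 units (edgeR, adjusted p = 0.582). Its other receptor Cd72 stood at 0.17 (adjusted p = 0.699), and none of the 5 T cell markers passed. These had a median of 0.15 with 4 of 5 above 0, while Cd4 stood at -0.43 (edgeR, adjusted p = 0.260). Summed, they averaged 33.3 CPM over Littermates (26.7 to 36.5) and 29.4 CPM over Experimental mice (24.4 to 33.5), so the sum and the median differed in sign. Sema4a, Sema4c, Sema4f and Sema4g lay between -0.21 and 0.01 (edgeR, adjusted p from 0.441 to 0.996).

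Class 6 ligands are membrane proteins that bind A-type plexins, and all 4 were below 0, with a median of -0.21. The sign did not hold in every alternative for 2 of them: Sema6a kept it in 19 of 21, with 0.07 without Littermate 4, and Sema6c in 18 of 21, with 0.07 under the correction for GC content. Sema6d (ENSMUSG00000027200, chromosome 2, 124089969 to 124667770), a ligand of Plxna1, had 3.42, 3.42, 3.41 and 4.02 RPKM in Littermates 1 to 4 and 3.18, 2.88, 2.55, 3.08, 2.29 and 2.91 RPKM in Experimental mice 1 to 6. All 6 Experimental libraries lay below all Littermates. The log2 fold change was -0.34 with an SE of 0.10 (edgeR, adjusted p = 0.175), and it passed in none of the 21 alternatives, in which it ran from -0.37 to -0.17. Ranges with the Experimental libraries entirely lower occurred for these 2 members, Sema6d and Plxnd1, and for 1.35% of all genes. Sema6b stood at -0.38, Sema6a at -0.09 and Sema6c at -0.08 (edgeR, adjusted p = 0.471, 0.849 and 0.880). The value of Sema6c is uncertain, as 47.9% of its exon bases also belong to ENSMUSG00000101384.

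The remaining ligands were of classes 5 and 7. Sema7a, a lipid-anchored ligand of Plxnc1 and of integrins, had 6.29, 6.31, 8.58 and 6.34 RPKM in Littermates 1 to 4 and 6.09, 5.79, 5.22, 6.67, 5.73 and 6.32 RPKM in Experimental mice 1 to 6. Littermate 3 stood above all others, and the log2 fold change of -0.21 (edgeR, adjusted p = 0.465) was -0.08 without it. Plxnc1 had 2.94, 3.19, 2.69 and 3.32 RPKM in Littermates and 2.85, 2.79, 2.82, 2.85, 2.35 and 2.82 RPKM in Experimental mice, at -0.14 (edgeR, adjusted p = 0.566). In 5 of the 6 Experimental libraries it lay between 2.79 and 2.85 RPKM. The integrin chains Itga1 and Itgb1 stood at -0.23 and -0.01 (adjusted p = 0.453 and 0.990). Sema5a was at 0.01 and Sema5b, with 6 to 28 counts a library, at -0.55 (edgeR, adjusted p = 0.971 and 0.50).

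**Figure D3:**
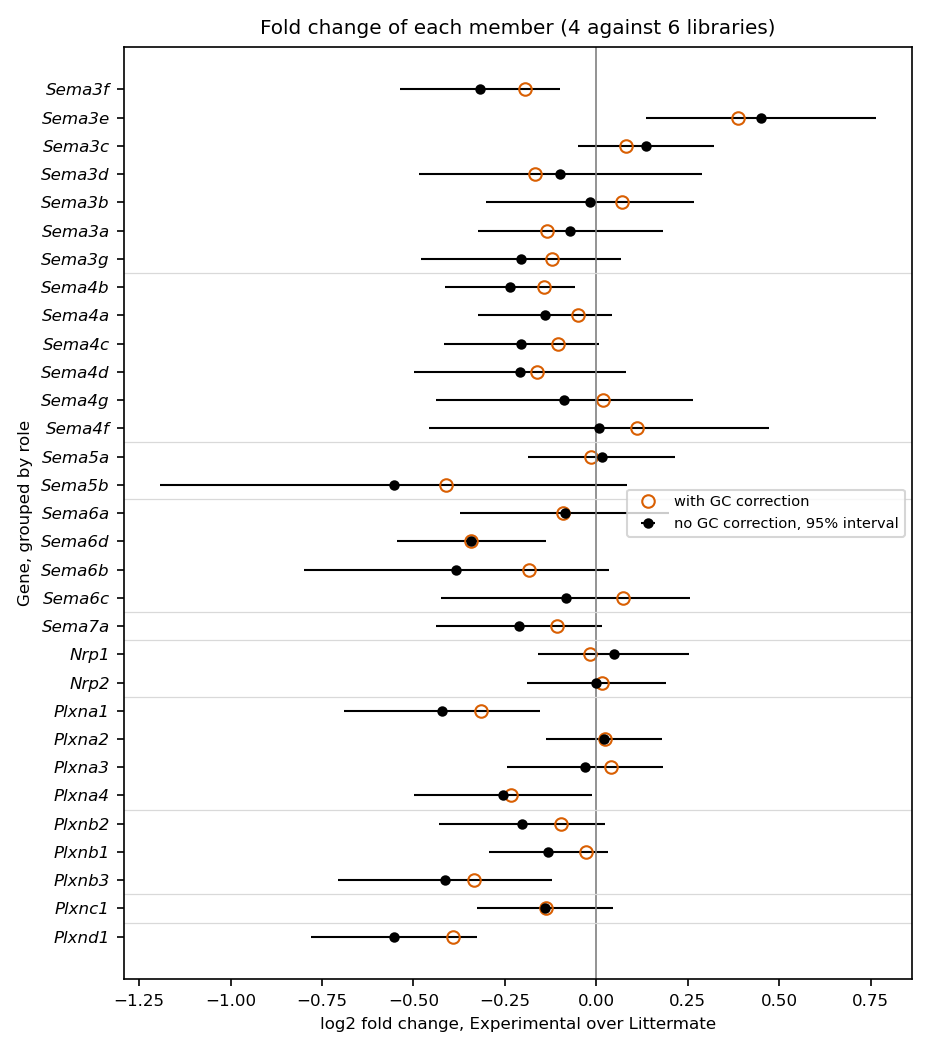
Log2 fold change of each member, Experimental over Littermate, grouped by role: black points with 95% intervals are the fit without correction and orange circles the fit with a correction for GC content. Plxnd1 has the interval farthest from 0 (-0.78 to -0.33), Sema3e lies above 0, and the correction draws most of the GC-rich members towards 0. Sema6d, whose GC content of 49.0% is under the median of tested genes, is at -0.34 in both fits.

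None of the 53 tested genes among 55 partners passed. They included co-receptors, cytoplasmic effectors and processing proteases. Of the 53, 36 lay below 0, beside 50.4% of all genes, with a median of -0.08. The lowest p belonged to Furin, the protease that cleaves class 3 semaphorins, at 20.1 ± 4.50 RPKM (SD, n = 4) and 13.9 ± 1.83 RPKM (SD, n = 6), or -0.53 on the log2 scale (edgeR, adjusted p = 0.144). Next were the plexin-bound oxidoreductase gene Mical3 at -0.48, the proteoglycan gene Cspg4 at -0.45 and the exchange factor gene Farp1 at -0.35 (edgeR, adjusted p = 0.188, 0.216 and 0.221). Furin and Mical3 passed without Littermate 2 (-0.65 and -0.59, edgeR, adjusted p = 0.0168 and 0.0322), as did 2.01% of all genes. Without Littermate 4 Furin and Mical3 stood at -0.39 and -0.29 (adjusted p = 0.536 and 0.607). The collapsin response mediators, which carry the Sema3a signal to microtubules, were picked after their values were seen. All 5 lay below 0, as did 50.4% of all genes, and none passed. Dpysl5 and Crmp1 had few counts, 16 to 54 and 4 to 39 in a library. Dpysl5 stood at -0.84, Crmp1 at -0.49, Dpysl2 at -0.26, Dpysl4 at -0.25 and Dpysl3 at -0.08 (edgeR, adjusted p = 0.254, 0.536, 0.292, 0.634 and 0.747).

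Across the 10 libraries the members did not vary evenly. Littermate 4 was the highest library for 19 of the 31 members and Experimental 5 the lowest for 11. The median deviation of the members from the mean of all libraries was 0.30 (log2) in Littermate 4 and -0.13 in Experimental 5, and between -0.06 and 0.05 in the others. Within groups the median coefficient of variation over members was 15.1% in Littermates and 11.9% in Experimental mice. These libraries were also the extremes in base composition. The median deviation of genes with GC-rich transcripts minus that of GC-poor ones was 0.16 in Littermate 4 and -0.13 in Experimental 5, against -0.08 to 0.07 elsewhere.

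**Figure D4:**
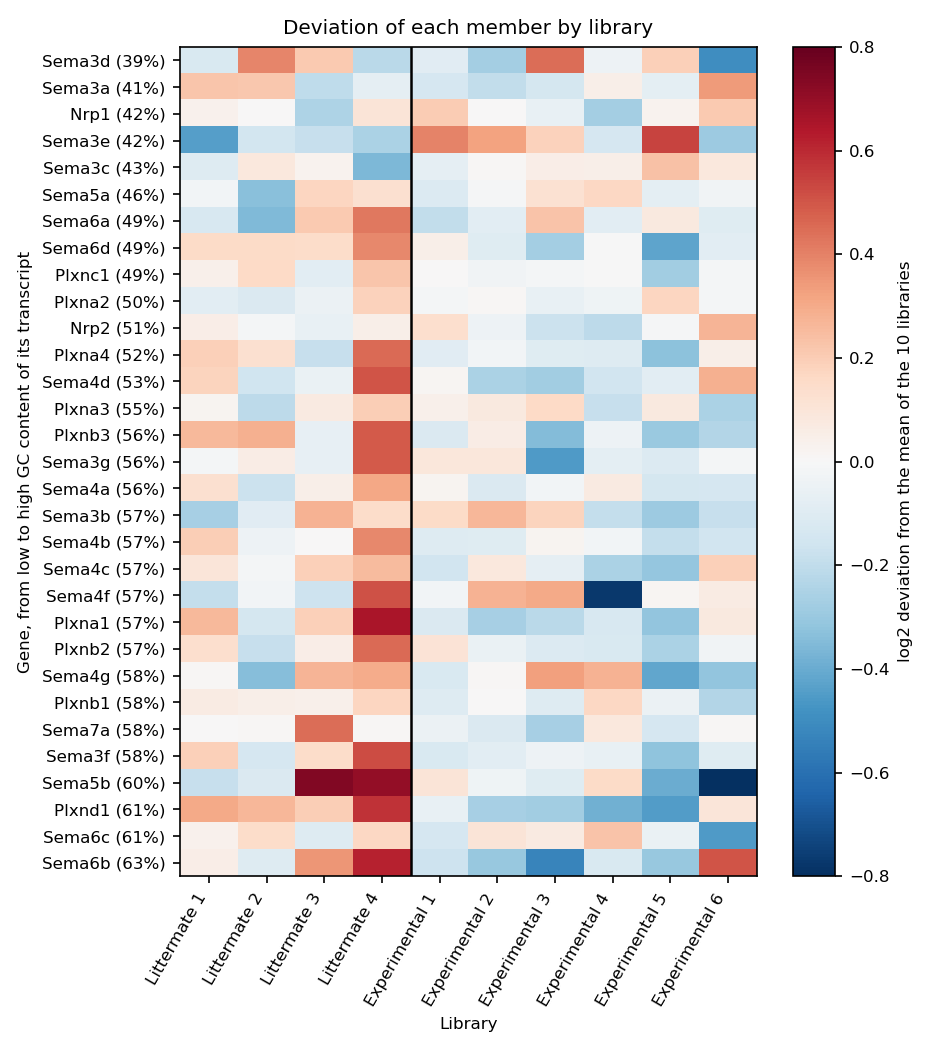
Deviation of each member (rows, from low to high GC content of its longest transcript) in each library (columns) from its mean over the 10 libraries, as log2. Littermate 4 is high for most rows in the lower, GC-rich part and Experimental 5 is low there, while Sema3e departs upward in Experimental 1, 2, 3 and 5.

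The members' transcripts were richer in GC than most, with a median of 56.2% against 49.7% for tested genes. Among the 22 members above that median GC content 20 had a log2 fold change below 0, and among the other 9 members 5 did. Of all genes, 5325 of 8359 in the GC-rich part and 3109 of 8359 in the GC-poor part lay below 0. With the correction for GC content the counts were 15 of 22 and 7 of 9, the median over the members was -0.11 beside 0.01 over all genes, and no member passed (edgeR, lowest adjusted p = 0.272). Plxna1 then stood at -0.31, Sema3f at -0.19, Sema6d at -0.34 and Sema3e at 0.39. The summed level of 4 Y-linked genes, present in all 10 libraries, also differed in range, 229 to 301 CPM in Littermates and 282 to 339.5 CPM in Experimental libraries. It was lowest in Littermate 4 and highest in Experimental 5, also the extremes in base composition, so a fit with this level is not a separate check. With that level as a covariate 17 of 31 members lay below 0 and the median was -0.05.

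**Figure D5:**
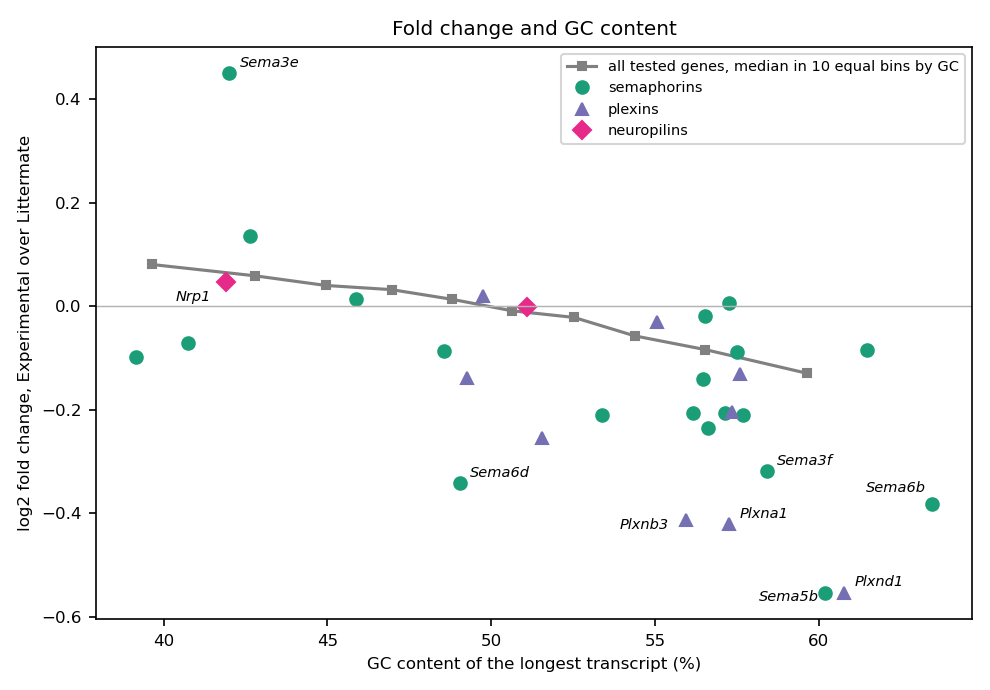
Log2 fold change of the 31 members (symbols by role) against the GC content of the longest transcript, with grey squares for the median of all tested genes in 10 equal bins by GC content. The grey line runs from 0.08 in the GC-poorest to -0.13 in the GC-richest bin, and Plxnd1, Plxna1, Plxnb3, Sema6d and Sema3f lie below it and Sema3e above it.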

How the data were processed

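RNA of whole ear skin was depleted of ribosomal RNA, reverse transcribed from random hexamers and sequenced as single reads of 50 bases, per the labels' protocols, which describe no strand marking. The submitters' processing notes list the aligner STAR 2.0.4b, the Subread package with featureCounts 1.4.5, and the mm10 build. The sources used here do not give the annotation, the strand setting or the handling of multi-mapped reads. Per the file headers, the authors deposited a read count, a CPM and an RPKM value for each Ensembl gene. The deposited CPM equals the count scaled to the library total, and the deposited RPKM equals that CPM per kilobase of gene length.

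Only the counts were tested. Symbols were matched to 97.3% of identifiers (GENCODE M21). The test was edgeR 4.0.16 (TMM factors from 0.984 to 1.02, filterByExpr, robust quasi-likelihood, two-sided, group as the only term), with Benjamini-Hochberg adjustment over 16830 genes at 0.05. Normalized RPKM divides TMM-scaled CPM by the deposited length, errors are SD over libraries, and the standard error is the log2 fold change over the square root of F. A total of 3 counts was worth 0.0715 to 0.260 CPM, and edgeR put the common biological coefficient of variation at 12.8%. The test was first run as a whole on simulated counts with known changes, in which every gene had the common dispersion. The alternatives were not run on simulated counts. GC content is that of the longest GENCODE M21 transcript. Upstream sequences are from RefSeq (GRCm38.p6).

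Alternatives were other size factors and filters, DESeq2 1.42.0, limma 3.58.1 (voom, with and without quality weights), the replicate number as a block, the level of Y-linked genes as a covariate, a lowess correction for GC content, and libraries left out. The members, gene lists and tests were chosen with earlier results of these data known. Library values are given for 9 fixed members (Sema3a, Nrp1, Nrp2, Plxna1, Plxnd1, Sema7a, Plxnc1, Sema4d and Plxnb2), the 8 with the lowest p, the 4 with the highest level and those whose groups do not overlap. Partner genes are named where they passed, filled to 4 by the lowest p. Some partner genes fixed by name are not reported here. The other partners named (the neuropilin ligands, Cd72, the integrin chains and the collapsin response mediators) were chosen for their role after their values were seen. Of the marker lists not named in the report, medians of the log2 fold change ran from -0.49 (cartilage, with Sox9 passing, the only marker that did) to 0.27 (B and plasma cells).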

Additional observations from a re-analysis of the deposited data

Results flagged for a closer look

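In 7 of 62 sets of libraries (31 members in each of the 2 groups) 1 library stood apart from the rest of its group by Dixon's criterion, which chance meets in about 1 of 20 sets. Experimental 5 was low for Sema3f (24.5 normalized RPKM, next 28.1) and Plxnc1 (2.35, next 2.79) and high for Plxna2 (10.3, next 9.20). Littermate 4 was high for Plxnb1 (22.6, next 20.9) and Sema6d (4.02, next 3.42). Littermate 3 was high for Sema7a (8.58, next 6.34). Experimental 6 was high for Sema6b (3.75, next 2.42). Without this library and Littermate 2 the gene passed (edgeR, log2 fold change -0.65, adjusted p = 0.0254), as did 3.34% of all genes, and it passed in no other fit. Leaving out the highest Experimental library lowers the fold change in any case.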

How the results depend on the processing

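The 31 members, none of which passed in the reported fit, gave 1 call each with no filter on low counts, DESeq2, voom with quality weights and the replicate block, always Plxnd1, and 5 without Littermate 2 and Experimental 6 (Plxnd1, Plxna1, Sema3f and Sema6b lower, Sema3e higher). Leaving out 1 library at a time gave 0 to 3 (3 without Littermate 2, and 1 without Experimental 6), and 0 members passed under the other alternatives. The count over all genes, 3 in the reported fit, was 78 with no filter, 231 with DESeq2, 60 with quality weights, 67 with the replicate block and 563 without both libraries, and 3 to 343 when 1 library was left out (343 without Littermate 2, 28 without Experimental 6 and 8 without Littermate 3). The 2 libraries left out together were those whose single omission gave the most calls, so that fit is not an independent check. For partner genes it was 1 with DESeq2 (Furin), 3 without both libraries (Furin, Mical3 and Pcsk5) and 0 to 2 when 1 library was left out. The median over the members was negative in all 21 alternatives, from -0.21 (without Littermate 2) to -0.05 (Y-linked level as a covariate). The replicate numbers are not a pairing in the labels: same-numbered libraries had correlations of deviations from -0.02 to 0.09, and 1 of 4 Littermates correlated best with its own number. Under the replicate block Plxnd1 stood at -0.58 (edgeR, adjusted p = 0.0488). The median of all genes was at most 0.02 under the other size factors. Depth limits Sema5b, with 6 to 28 counts a library, and Sema4f, with 15 to 113.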

Other observations

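The ratio of Nrp1 to Nrp2 in normalized RPKM ran from 1.54 to 1.83 among the 4 Littermates and from 1.68 to 1.90 among the 6 Experimental mice. Of the antisense genes named after Plxna4, Plxna4os1, Plxna4os2 and Plxna4os3 had 77, 340 and 18 counts over all 10 libraries. Shared sequence was rare among the members: of the 50-base windows of the longest transcript, 7.19% of those of Plxna1 (with Gm26811), 2.58% of those of Sema3a (with Gm43431) and 2.46% of those of Plxnb1 (with Gm7628) occur in transcripts of another gene, and at most 1.72% for the other members.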
